A study of Mus musculus with 8 samples.

Results

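The exon table of this mouse brain data set marks some of its rows with the letter N in a column headed NovelExon, and the marked rows with many reads are described here. A row was taken when it bore the mark and had a mean of at least 50 reads over the 8 libraries. These rules gave 3105 exon rows of 292239 in the table, and 9655 marked rows fell below 50 reads. For comparison, 68625 rows without the mark reached the same level. The libraries hold polyA-selected RNA from the SCN (suprachiasmatic nucleus) of mice of the C57/BL6 strain kept in darkness, sampled every 6 h over 2 days with RNA of 3 mice pooled in each. All groups share strain, tissue and lighting and differ in circadian time (CT), with 2 libraries 24 h apart at each of CT4, CT10, CT16 and CT22; no ages are used here. Replicates 1 and 2 stand for the first and second cycle. The labels name no replicates and start collection at CT18, although the first library is titled CT22, so a p-value here measures spread between pooled libraries and not between mice.

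Most mouse genes are spliced: the spliceosome joins exons at a donor site, which marks the 3′ end of an exon and usually starts the intron with GT, and an acceptor site, which ends the intron with AG just before the next exon. Alternative donors and acceptors make an exon longer or shorter, and a pair of acceptors a single codon apart is a common form of it in mammalian transcripts. The SCN is the central circadian clock of mammals, and many of its transcripts follow the time of day.

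The following exons show how a marked row differs from a known exon. They are whole coding exons of at most 300 bases, chosen after their values were seen because reads across splice junctions supported the new border best or because their hosts belong to the lists of splicing factors and SCN genes. The letters come from GENCODE M21 transcripts, built on GRCm38, and were matched to the files by the lengths of the exon and its introns. Positions are those of the marked rows on mm9, as the files give them, and the strand is that in mm9. Capitals mark the bases between the known and the new border. In all but Brd9, the known exon is printed and the marked row lacks the capitals. In Brd9, the marked row is printed and the known exon lacks them.
Vip, chr10:4703947-4704069, minus strand: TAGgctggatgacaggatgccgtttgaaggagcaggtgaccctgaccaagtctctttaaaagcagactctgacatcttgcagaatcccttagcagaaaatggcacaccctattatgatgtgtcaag
Vip, chr10:4702423-4702551, minus strand: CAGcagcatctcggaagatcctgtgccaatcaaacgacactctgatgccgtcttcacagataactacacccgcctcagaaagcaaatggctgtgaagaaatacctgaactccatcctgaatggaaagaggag
Srrm2, chr17:23960986-23961087, plus strand: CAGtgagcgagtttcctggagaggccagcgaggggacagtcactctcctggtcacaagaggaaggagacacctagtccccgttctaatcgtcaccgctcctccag
Tra2a, chr6:49194867-49194931, minus strand: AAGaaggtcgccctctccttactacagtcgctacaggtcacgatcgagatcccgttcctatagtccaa
Tra2b, chr16:22247263-22247333, minus strand: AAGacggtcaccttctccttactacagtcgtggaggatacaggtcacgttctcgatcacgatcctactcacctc
Rasgrf1, chr9:89839564-89839711, plus strand: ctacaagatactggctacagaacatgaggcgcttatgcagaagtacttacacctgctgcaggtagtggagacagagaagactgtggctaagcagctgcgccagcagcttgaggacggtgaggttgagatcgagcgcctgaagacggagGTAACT
Pdcd6, chr13:74447138-74447290, minus strand: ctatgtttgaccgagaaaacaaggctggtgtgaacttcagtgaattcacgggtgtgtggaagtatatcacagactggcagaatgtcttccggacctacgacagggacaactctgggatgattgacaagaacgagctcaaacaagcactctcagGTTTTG
Brd9, chr13:74080079-74080254, plus strand: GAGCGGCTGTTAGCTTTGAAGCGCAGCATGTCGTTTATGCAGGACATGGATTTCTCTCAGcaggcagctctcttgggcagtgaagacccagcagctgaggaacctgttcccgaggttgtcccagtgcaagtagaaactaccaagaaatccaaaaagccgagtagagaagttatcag
In the first 5 the capitals end in AG and lie at the 5′ end of the exon, where an acceptor would stand. In Rasgrf1 and Pdcd6 they begin with GT at the 3′ end, where a donor would stand.

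The library totals of the exon table ran from 25232810 to 25232813 reads, so depth had been equalised before deposit, and the marked exons held between 771913 and 800680 reads of each library. Summed levels of 12 oligodendrocyte markers, myelin genes of a cell type of neighbouring white matter, ran from 5165 to 15830 CPM (reads scaled to library size) in the gene table, and none of the 12 was at 0. The 7 SCN neuron markers, Vip and Avp among them, summed to between 398.6 and 804.1 CPM, with none at 0. Markers of the arcuate nucleus (Pomc, Agrp and Npy) summed to 72.1 CPM in CT10 replicate 1 and to between 4.13 and 16.8 CPM in the other libraries. Oxt, a magnocellular marker, was at 142.7 CPM in CT22 replicate 1 and at 59.1 to 102.1 CPM in the others. An oligodendrocyte marker score was a model term in a fit given below, but that term was not itself tested. The part of these differences in the marked rows was not tested. In bulk tissue, fewer cells of a type and less RNA per cell cannot be told apart. One library stood apart in the reads of single exons. In 8 marked exons, 1 library had at least 3 times the reads of the next highest, and in all 8 it was CT22 replicate 1. Among the 68625 unmarked rows at the same level, 109 had such a library, and for 99 of them it was CT22 replicate 1.

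At this level of reads, the marked exons were mostly variants of known exons and not separate ones. Of the 3105, 1933 (62.3%) lay wholly inside an unmarked exon row of the same gene and 1104 (35.6%) overlapped one and reached past it. A further 23 lay inside an intron, 2 outside the span of their host gene, and 43 in none of these classes. Exactly 1 border was shared with a known exon in 2934 rows (94.5%), both borders in 34 and neither in 137. All but 29 rows overlapped another exon row, and in the shared bases the reads of a marked row cannot be told apart from those of the row it overlaps. Such shared reads count towards the threshold of 50 reads, so the rule may favour overlapping rows. The 9655 marked rows below it were not classed by position. A whole intron row lay inside 156 of them, 129 of which reached past a known exon. Their median length was 204 bases (quartiles 127 and 518), beside 222 bases (125 and 991) for unmarked rows at the same level.

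The marked rows were also rare in a later annotation. Among the 2468 marked rows with a junction row at both borders, 133 (5.39%) had the lengths of an exon and its 2 introns in GENCODE M21. Among unmarked rows of the same level with junctions on both sides, 33464 of 33979 (98.5%) did. Gene strand was taken from GENCODE M21, except for 17 of 13519 genes whose exon and intron lengths matched in reversed order. Those 17, Vip among them, were read on the opposite strand in mm9, and they host 9 of the marked rows.

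Level chose these rows, so their reads are a description. The median was 107.1 reads per library (quartiles 69.9 and 209.6), and the highest mean was 13190 reads. Read density, in reads per base relative to the median known exon row of the same gene, had a median of 0.896 over 2970 marked rows, beside 1.29 for 66748 unmarked rows at the same level. Against the known row that shares a border, the marked row held a median of 64.9% of the reads. Where the marked row was only 3 to 6 bases shorter, it still held a median of 61.7% (390 rows). Just inside the threshold, rows of Csnk1e and Mrpl40 had a mean of exactly 50 reads, as did 12 rows in all. Just outside it, rows of Dlg4, Pkd1 and D16H22S680E had 49.9.

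The most-read marked exon lay in Meg3, an imprinted long noncoding RNA (chr12:110796850-110797945, inside a known exon row). Its reads in the first cycle were 12807 at CT16, 15791 at CT22, 14644 at CT4 and 10119 at CT10, and in the second 10512, 15565, 17364 and 8719. Both CT10 libraries were the lowest. Rows of Sparcl1, a secreted matrix protein of astrocytes (mean 11990 reads), of Snhg11, a noncoding snoRNA host (11943), and of Scg2, secretogranin II, a protein of dense-core vesicles (11484), came next. Scg2 held 2 more of the 10 most-read rows, at 10611 and 8174 reads, and these 2 share their start and overlap. The remaining ones lay in Sparc (9326), Syp, which encodes the synaptic vesicle protein synaptophysin (7907), Ubb, a polyubiquitin gene (7650), and a row labelled Gdi-1 (7534). Of the 23 rows inside introns, the most read was in Meg3 (2351 reads), followed by 2 overlapping rows of Fam189a2 (149.5 and 146.9). Outside the span of the host stood rows of Sfi1 (134.4 reads) and Dpp8 (110.8). Among rows that reach past a known exon, Meg3 (2282), Calm2, a calmodulin gene (2239), and Cd81, a tetraspanin (1926), had the most reads.

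Some rows were dense in reads for their gene. A 153-base row of Macf1, a large cytoskeletal linker, had 203.2 times the reads per base of the median known row of its host, a 553-base row of Dst (labelled Bpag1/Dst) 85.9 times and a second Macf1 row 76.9 times. The ratios rest on very low medians, 0.0097 reads per base in Macf1 and 0.0116 in Dst. The rows themselves had 1.97, 0.999 and 0.744 reads per base, in the order given. Each lies within a known exon row, and Macf1 and Dst are long genes with many exon rows.

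A host gene could be assigned to 2982 marked rows, in 1813 genes. In 1162 of these genes there was 1 marked row, and in 57 there were at least 5. Meg3 had 14 marked rows in 10 separate places, with means from 61.9 to 13190 reads. Snhg11 had 11 in 6 places, from 66.5 to 11943 reads, and Podxl2, a sialomucin gene, had 11 in 6 places, from 83.8 to 576.9 reads. Hap1, which encodes a huntingtin-associated protein, had 9, and Ahi1 and Srrm2 had 8 each. The rows of 1 gene overlap in part and are not independent.

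The commonest distances of marked borders from known ones were a few bases, most of all on the acceptor side. The distance could be measured for 2933 rows, 1576 of them shorter than the nearest known row and 1357 longer. Its median was 34 bases for the shorter rows and 130 for the longer ones. The commonest distance was 3 bases (154 rows), followed by 4 (141), 5 (98) and 6 (81). The new border was an acceptor in 1672 rows, a donor in 1218 and of unknown strand in 43. An acceptor exactly 3 bases inside the known exon accounted for 120 rows, and 1 that was 4 bases inside for 103. On the donor side the commonest change was a gain of 4 bases (27 rows). The plot of distances shows these 2 peaks.

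**Figure D1:**
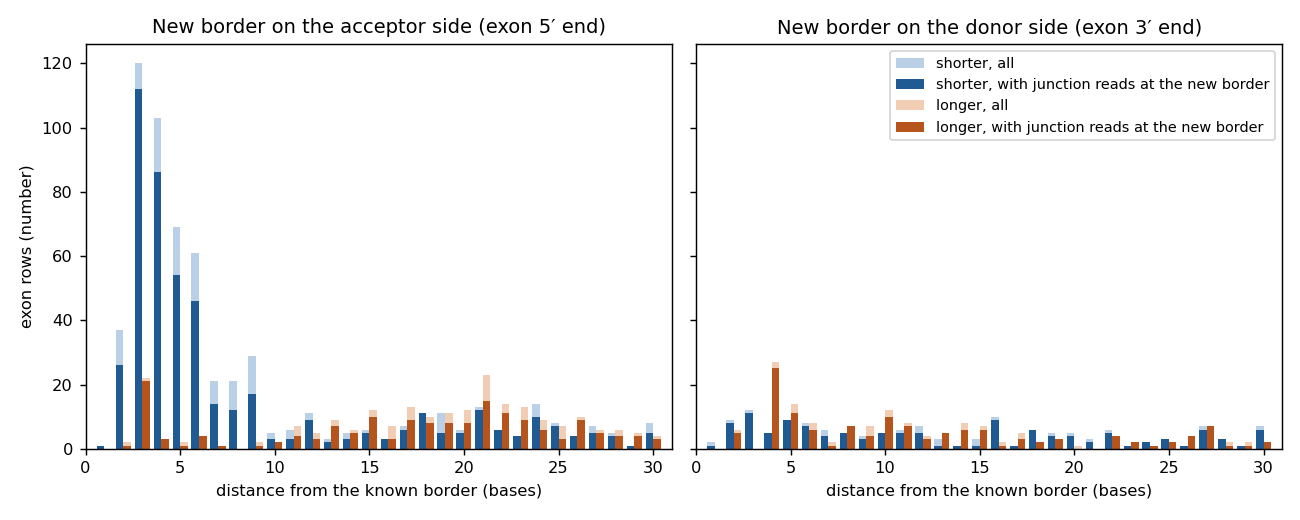
Number of marked exon rows (vertical axis) by distance in bases of the new border from the known one (horizontal axis, up to 30), for acceptors (left) and donors (right). Blue bars are rows shorter than the known exon and orange bars longer ones; pale bars count all rows and dark bars those with a junction read at the new border; acceptors 3 bases inside the exon peak at 120 rows, 112 of them with junction reads.

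The letters at the new borders were those of splice sites. Of 833 skipped acceptor segments that could be read from GENCODE transcripts, 829 (99.5%) ended in AG, read on the strand of the transcript. Of 253 skipped donor segments, 231 (91.3%) began with GT and 19 more (7.51%) with GC. In the same exons AG made up 9.17% and GT 4.68% of all pairs of adjacent letters. The segments of rows longer than the known exon gave 35 of 37 with AG and 11 of 12 with GT. Whether these letters decided which junctions were kept before deposit was not tested. Where the acceptor moved by 3 bases, the skipped letters were AAG in 54, GAG in 30, CAG in 24 and TAG in 9 of 117 rows. All 99 readable acceptors at 4 bases also ended in AG. In coding exons, 417 of 927 shortened rows (45.0%) differed by a multiple of 3 bases, a change that keeps the reading frame. The figure was 44 of 71 (62.0%) for those with at least 20 junction reads at the new border and 75 of 179 (41.9%) for those with none. Over all marked rows, coding or not, 35 acceptors exactly 3 bases inside the known exon had at least 20 junction reads. Their part in the 44 was not counted, so the higher figure may not hold for other distances.

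Reads across the junctions are the measure specific to a new border, and they were few. Over all 8 libraries together, the median was 4 junction reads at the new border, and 613 of 2933 rows (20.9%) had none. At least 20 such reads were found for 290 rows and at least 100 for 43. The share of a new border is its junction reads over all junction reads that leave the same partner site. Over the 2320 rows with any such read it had a median of 2.44%, with 1411 under 5%, 340 from 5 to 50% and 569 over 50%. Of the 569, 468 had no competing border at the partner site and 486 had fewer than 20 junction reads in all. Among rows with at least 100 junction reads, 1381 were under 5%, 184 from 5 to 50% and 24 over 50%.

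**Figure D2:**
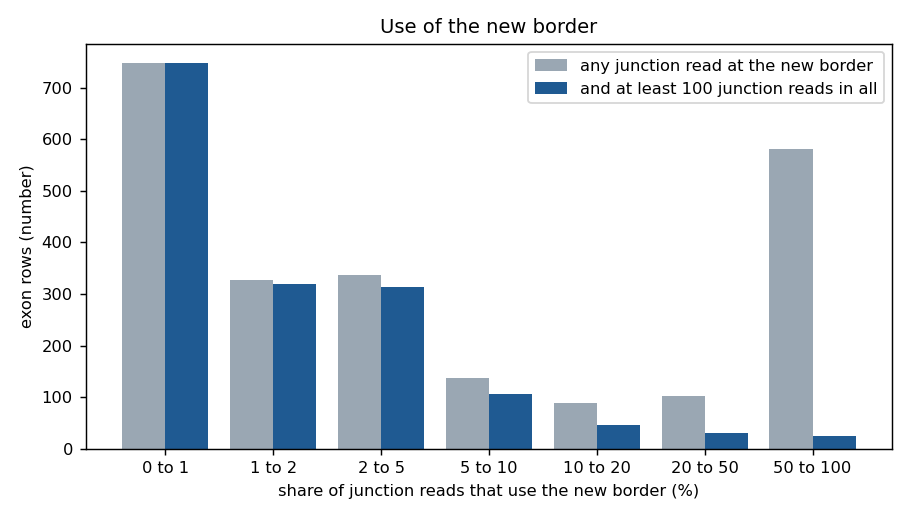
Number of marked exon rows (vertical axis) by share of junction reads that use the new border (horizontal axis, percent, 8 libraries pooled). Grey bars count rows with any junction read there, and blue bars those with at least 100 junction reads at the partner site; of the latter, 1381 lie under 5% and 24 over 50%.

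The new border with most junction reads lay in Rian, an imprinted noncoding RNA next to Meg3. A donor 15 bases further on carried 1884 of 9387 junction reads (20.1%, 95% Wilson interval 19.3 to 20.9). Its share ran from 17.0% in CT10 replicate 1 to 24.5% in CT4 replicate 2. Intervals of this kind cover counting error only. Next came Ik, where an acceptor 6 bases inside the known exon carried all 1273 junction reads, with no competing border. New borders of Epb4.9 (338 reads) and Rdx (237 reads) likewise had none. A donor of Evi5l carried 630 of 1130 reads (55.8%), between 47.5% and 60.0% in the libraries. An acceptor of Itih3, a hyaluronan-binding protein of the extracellular matrix, carried 291 of 1437 (20.3%). The Itih3 share was 31.1% and 32.2% at CT4, 12.7% and 20.7% at CT10, 21.6% and 13.5% at CT16 and 15.0% and 19.9% at CT22. Both CT4 libraries were above the other 6, a difference that was seen first and not tested.

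Vip encodes vasoactive intestinal peptide, the transmitter through which ventral SCN neurons synchronise the clock cells. It had 6 marked rows, and in 3 of them the acceptor lay 3 bases inside the known exon. In the 123-base row (TAG printed above) 243 of 1740 junction reads used the inner acceptor, a share of 14.0% (Wilson interval 12.4 to 15.7). By library it was 16.8% and 11% at CT4, 14.5% and 11.1% at CT10, 21.2% and 8.45% at CT16, and 14.5% and 13.4% at CT22. The 2 libraries of CT16 were the highest and the lowest, so the share had no order by circadian time. Every first-cycle share lay above every second-cycle share in this row, which was seen afterwards and not tested. In the 129-base and 78-base rows described next, the shares of the cycles overlapped. The 129-base row (CAG above) belongs to the exon that encodes the mature peptide, and 63 of its 852 junction reads (7.39%, 5.82 to 9.35) used the inner acceptor. A 78-base row further downstream gave 218 of 1378 (15.8%, 14.0 to 17.8), with 12.6% to 19.6% in single libraries. The other 3 Vip rows had 5, 0 and 0 junction reads at their new border. By reads, the 123-base row held 313.6 per library and the known 126-base row 508.4, a ratio of 61.7% beside the junction share of 14.0%.

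Of the 59 marked rows in RNA-binding and splicing genes, 9 had at least 20 junction reads at the new border. Tra2a and Tra2b, from this list, encode paralogous activators of exon inclusion, and each had an acceptor 3 bases inside a known exon, with AAG skipped. Tra2a used it in 78 of 858 junction reads (9.09%, 7.35 to 11.2) and Tra2b in 43 of 502 (8.57%, 6.42 to 11.3). Srrm2, a protein of the spliceosome outside the list, did so in 163 of 1999 (8.15%, 7.03 to 9.44), with 5.03% to 13.4% in single libraries. In Ahi1, a ciliary protein gene, 117 of 3039 (3.85%) and in Bcas1, a gene of oligodendrocytes, 92 of 1043 (8.82%) used such a site. Rasgrf1, an exchange factor for Ras, used a donor 6 bases inside its exon in 171 of 753 reads (22.7%, 19.9 to 25.8). Its library shares were 23.0% and 40% at CT4, 30.9% and 30.8% at CT10, 14.1% and 13.1% at CT16 and 20% and 13.2% at CT22. All 4 day libraries lay above all 4 night libraries in this gene, which was picked for its junction reads and not for time; no test of it was made. Pdcd6, a calcium-binding protein gene, used its inner donor in 119 of 469 (25.4%, 21.7 to 29.5). In Brd9, a bromodomain subunit of a chromatin remodeller, the acceptor 60 bases upstream took 143 of 208 reads (68.8%, 62.2 to 74.7), and the marked row held 60.0 reads against 41.9 in the shorter known row.

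**Figure D3:**
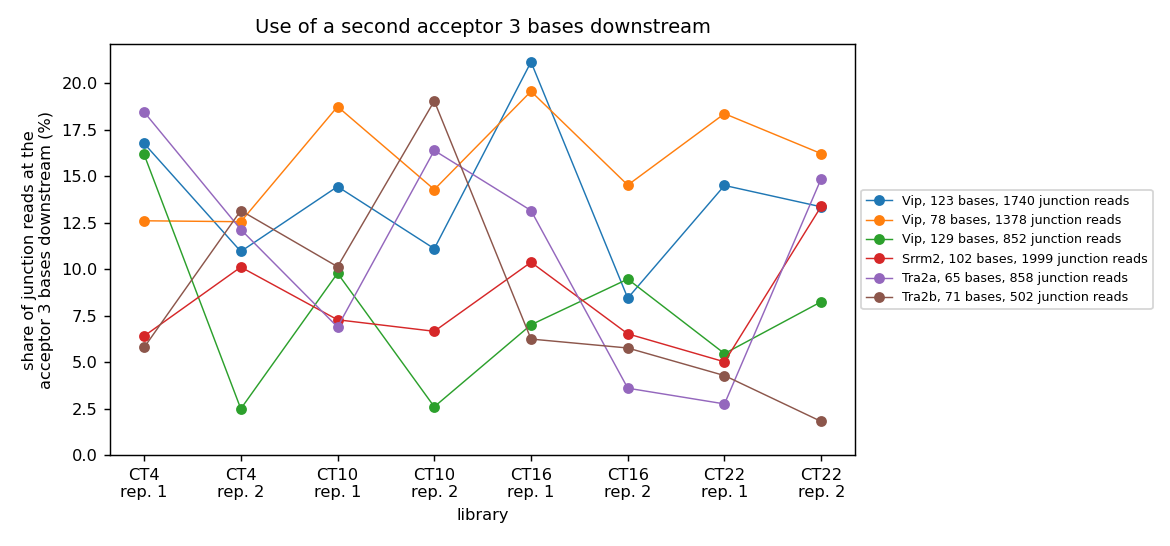
Share of junction reads at an acceptor 3 bases downstream of the known one (vertical axis, percent) in each library (horizontal axis, ordered by circadian time and replicate) for 3 exons of Vip and 1 each of Srrm2, Tra2a and Tra2b. Lines join libraries of 1 exon; the 123-base Vip row runs from 8.45% to 21.2%, and the 2 libraries of a time often differ as much as the times do.

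No marked exon changed with circadian time at an adjusted p under 0.05 (edgeR quasi-likelihood F test for a 24-h cosine, Benjamini-Hochberg over 184367 exon rows). Over the whole exon table, 25 rows passed (percent called 0.0136%). At an unadjusted p under 0.05 there were 233 of 3105 marked rows (7.50%), beside 5.97% of all rows tested and 7.54% of unmarked rows at the same level. With DESeq2's likelihood-ratio test 24 marked rows passed (0.773%), beside 0.396% of the 130750 rows it gave an adjusted p and 0.596% of unmarked rows at the same level. With the oligodendrocyte marker score of each library as a term, edgeR called 6 marked rows (0.193%), beside 0.0407% of all rows and 0.0816% of unmarked rows at the same level. With no filter on low counts it called 60 (1.93%), beside 0.666% and 1.45%. The edgeR count was 1 without CT22 replicate 1 and 18 without CT16 replicate 1. The share of all rows called in those fits was not tallied, so these counts cannot be read as particular to the marked rows. The median peak-to-trough difference of the marked rows was 0.35 on the log2 scale, beside 0.33 for unmarked rows of that level and 0.54 over all rows tested. Of the 233, 80 (34.3%) peaked nearest CT22, 55 (23.6%) nearest CT4, 50 (21.5%) nearest CT10 and 48 (20.6%) nearest CT16. Of the 5175 unmarked rows of that level under the same p, 27.4% did so for CT22, 25.4% for CT4, 24.3% for CT10 and 23.0% for CT16. The difference was not tested. Without CT22 replicate 1 there were 256 marked rows, with 89, 56, 54 and 57 nearest these times, a tally added after the data were seen. The authors' deposited table holds a JTK rhythm test with a lowest q-value of 1 over all exon rows, so no row passed on q. Its column headed ADJ.P is separate from that q-value and is not the Benjamini-Hochberg value used above. It was under 0.05 in 67 marked rows (2.16%), the lowest being 0.00159. In the authors' deposited table the share was 3.10% for unmarked rows at the same level.

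Meg3, Rgs16, Hsph1, Pcsk1n and D4Wsu53e held the 5 marked rows with the lowest p, shown in the plot of reads by time. The test of circadian time chose them, so any separation of their libraries by time follows from the choice and is description only. At their new borders these rows had 3, 4, 2, 3 and 6 junction reads in that order, over all libraries together. The Hsph1 border took 2 of 1875 junction reads (0.107%), and that row holds a whole intron row. The time courses are therefore those of all reads in the row and not of the new border. The Meg3 row given above had a peak-to-trough difference of 0.87 ± 0.14 (log2, SE), a fitted peak between CT22 and CT4, and an adjusted p of 0.0709 in edgeR. Relative to the whole gene the difference was 0.36 (log2; edgeR adjusted p = 0.999). On the 24-h test in DESeq2 the row had an adjusted p of 0.000246. In edgeR it passed without CT22 replicate 1 (adjusted p = 0.0325) and without CT16 replicate 1 (0.00387) but in none of the other 6 cases.

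Rgs16 encodes a regulator of G-protein signalling in the SCN, and its marked row (chr1:155586732-155587642) reaches 731 bases past the acceptor of a known exon. It had 159 and 203 reads at CT4, 107 and 96 at CT10, 71 and 59 at CT16, and 107 and 111 at CT22. CT4 was above and CT16 below all other libraries. The peak-to-trough difference was 1.49 ± 0.26 (log2, SE) with an adjusted p of 0.130 in edgeR and of 7.67e-05 in DESeq2. Relative to the whole gene it was 0.39 (edgeR adjusted p = 0.999). The row held 5.66% ± 0.48 (SD, n = 2) of the gene's reads at CT4 and 7.25% ± 1.15 (SD, n = 2) at CT16.

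Hsph1 encodes an HSP110 chaperone, and its row (chr5:150420962-150422120) reaches 997 bases past an acceptor. Reads were 600 and 443 at CT4, 364 and 316 at CT10, 764 and 849 at CT16, and 733 and 723 at CT22. Both night times lay above both day times. The difference was 1.26 ± 0.21 (log2, SE; edgeR adjusted p = 0.138), and 0.31 relative to the gene. The row passed in DESeq2 (adjusted p = 9.52e-05) and in edgeR without CT4 replicate 1 (adjusted p = 0.0307) or CT16 replicate 1 (0.0459), but in none of the other 6 edgeR fits that left out a library. D4Wsu53e (chr4:134481208-134481563) was highest by day: 638 and 744 reads at CT4, 602 and 625 at CT10, 342 and 430 at CT16 and 478 and 464 at CT22, a difference of 0.92 ± 0.17 (log2, SE; adjusted p = 0.184 in edgeR and 5.08e-05 in DESeq2). Its 4 day libraries did not overlap the 4 night libraries, in a row picked by its p on the test of time. Relative to the whole gene the difference was 0.38 (log2; edgeR adjusted p = 0.999).

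The Pcsk1n row rests on 1 library. Pcsk1n encodes proSAAS, a secreted inhibitor of a prohormone convertase, and its row (chrX:7499174-7499377) had 1209 reads in CT22 replicate 1, 12 in CT22 replicate 2 and 2 to 43 in the rest. The fitted difference of 6.47 (log2) became 2.34 with an opposite phase without that library (edgeR adjusted p = 0.812). A longer overlapping Pcsk1n row had 1667 reads there and at most 86 elsewhere, and the whole gene had 2941 against at most 670. In Sqstm1, an autophagy receptor, 2 marked rows had 498 and 341 reads in CT22 replicate 1 and at most 46 and 36 elsewhere, while the gene had 5186 reads there and 5679 in its highest other library. Single rows of Slc22a17 (640 reads against at most 189), Itm2c (481 against 154), Ywhab (245 against 81) and Ly6h (249 against 83) did likewise. The Slc22a17 row had 82 of its 159 new-border junction reads in that library. CT16 replicate 2 was the second highest in 7 of the 8 rows. What sets this library apart was not tested.

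**Figure D4:**
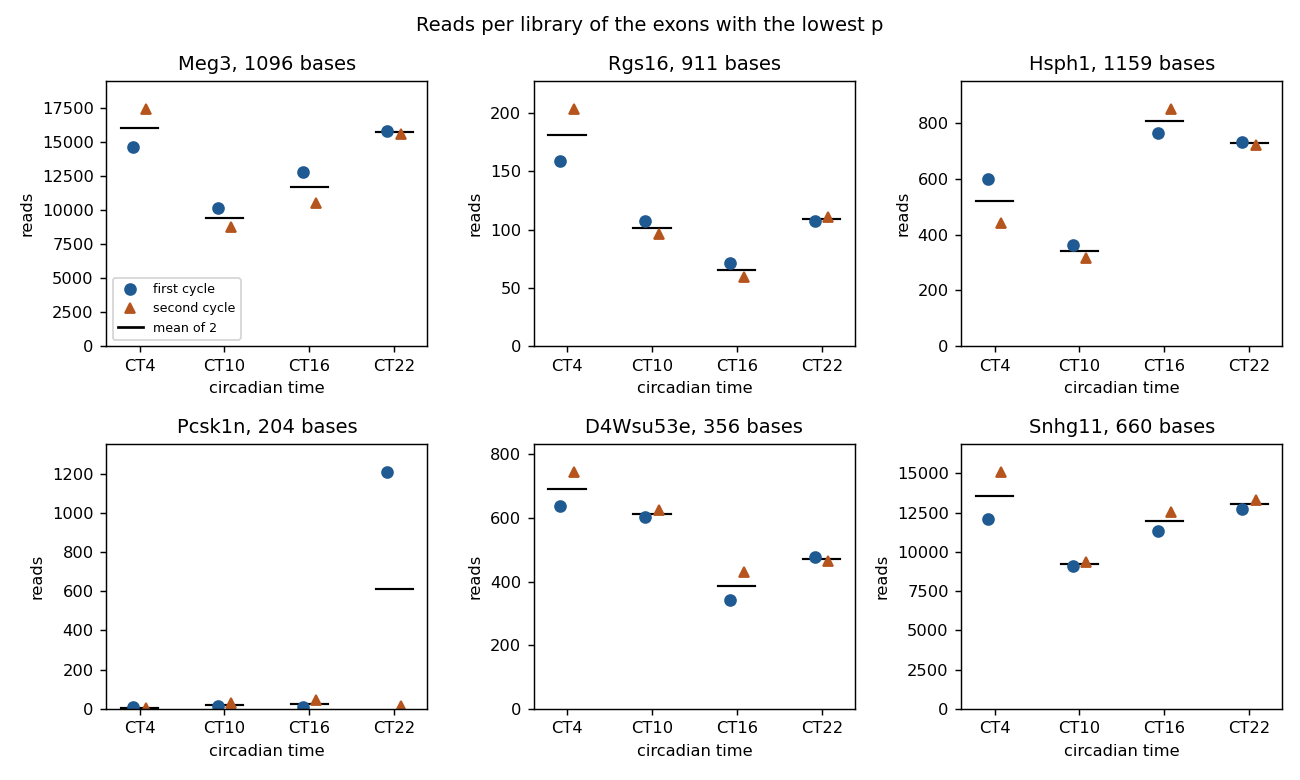
Reads per library (vertical axes, linear from 0) at each circadian time (horizontal axes) for the 5 marked exons with the lowest p on the 24-h test and for the Snhg11 exon that passed the test relative to its host. Circles are the first cycle, triangles the second, and bars the mean of the 2 libraries; the Pcsk1n exon is high in 1 library only, at 1209 reads.

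**Figure D5:**
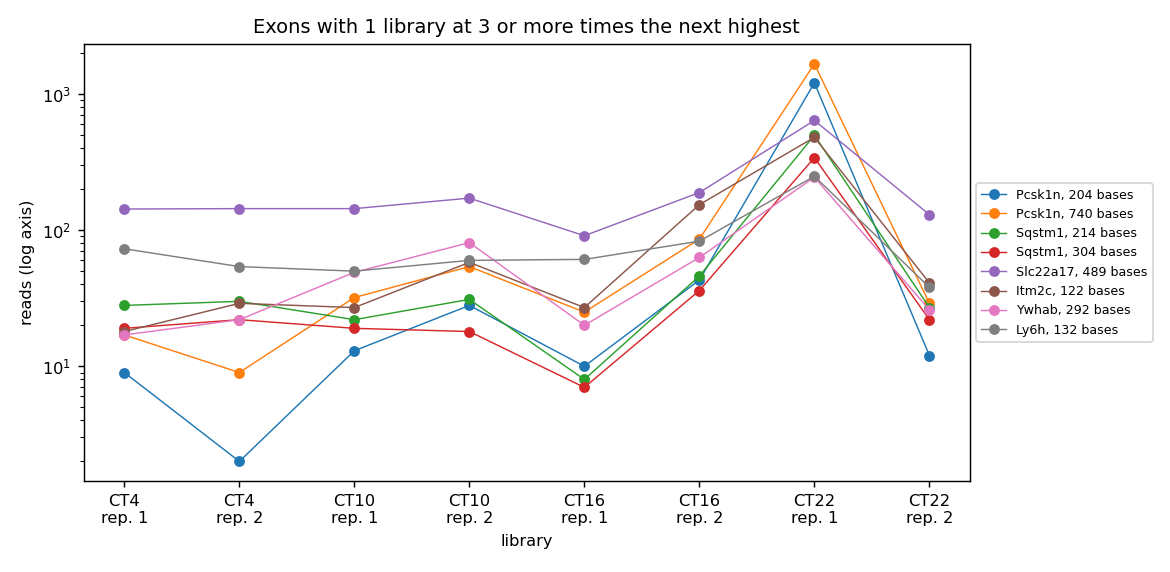
Reads (vertical axis, log scale) in each library (horizontal axis) of the 8 marked exons in which 1 library had at least 3 times the reads of the next. All 8 peak in CT22 replicate 1, where they hold from 245 to 1667 reads.

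Relative to the reads of their host genes, 1 marked row of 2977 changed at an adjusted p under 0.05 in the same edgeR test, and it was the only one among 174824 rows (percent called 0.000572%). At an unadjusted p under 0.05 the marked rows numbered 210 (7.05%), beside 4.68% of all rows and 5.39% of unmarked rows at the same level. Of the rows under 0.05 on the 24-h test that could be tested in both ways, 108 of 221 (48.9%) were also under it here, which is 51.4% of the 210. Both tests use the same exon reads, and the overlap was not tallied for other rows. It cannot be read as particular to the marked rows. The median peak-to-trough difference relative to the host was 0.29 (log2), beside 0.24 for unmarked rows and 0.46 over all rows tested.

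That row was in Snhg11 (chr2:158208240-158208899, 660 bases, inside a known exon row). It held 16.3% and 17.0% of the gene's reads at CT4, 14.5% and 14.9% at CT10, 15.6% and 15.7% at CT16, and 17.6% and 17.7% at CT22. The CT10 libraries were the lowest and the CT22 libraries the highest, with no overlap, in a row picked by this test. The difference was 0.28 (log2) with an adjusted p of 0.0471 in edgeR. It did not pass when the exon's own reads were taken out of the host total (adjusted p = 0.999), with scaling factors computed on the ratio (0.204), or in 6 of 8 fits that left out a library. The difference itself was 0.33 and 0.25 (log2) in the first 2 cases and 0.26 to 0.29 in those 8 fits. Without CT22 replicate 1, 2 marked rows passed, and this one had an adjusted p of 0.0362.

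By host-gene list, the counts on the 24-h test were as follows, beside 7.50% of all marked rows at an unadjusted p under 0.05 and none of any list at an adjusted p under 0.05 in edgeR. Lists and rows were picked with results known and overlapping rows share reads. Of 14 long noncoding RNAs, 6 hosted 47 rows, and 20 of them (42.6%) had a p under 0.05, 9 in Snhg11 and 5 in Meg3. Their median difference was 0.54 (log2), and 12 of the 47 had a p under 0.05 relative to their host, beside 7.05% of all marked rows. Meg3 and Snhg11 rows printed above were lowest at CT10, where the 12 oligodendrocyte markers summed to 15350 and 13140 CPM. They summed to 5165 and 8481 CPM at CT4, 8183 and 15830 at CT16 and 10440 and 10470 at CT22, and their part in these rows was not tested. An intron row of Meg3 (2351 reads) differed by 0.59 ± 0.14 (log2, SE; edgeR adjusted p = 0.476).

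Of 24 core clock genes, 4 hosted 5 rows, and 3 of the 5 had a p under 0.05. Tef encodes a PAR bZIP activator of clock output, and its row at chr15:81650969-81651849 had 297 and 296 reads at CT4, 264 and 320 at CT10, 272 and 189 at CT16 and 195 and 223 at CT22 (0.60 ± 0.21, log2, SE; edgeR adjusted p = 0.810). A second Tef row had 147.9 reads and differed by 0.79 ± 0.25. The third was in Gm129, the repressor also called Ciart (named after its values were seen): it had 93 and 106 reads at CT10 and at most 77 in any other library. No clock row had a p under 0.05 relative to its host. A row of Csnk1d, a kinase of PER proteins, had 94.0 reads and an adjusted p of 0.982 in edgeR.

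Of 57 RNA-binding and splicing genes, 31 hosted 59 rows, 10 of which (16.9%) had a p under 0.05, with a median difference of 0.41 (log2). Relative to their hosts, 8 of the 59 were under 0.05. The most read were in Ddx5, an RNA helicase (1818 reads, 0.36 ± 0.15, log2, SE), in Celf4 (1527, 0.24 ± 0.14) and in Srsf5, an SR protein (1182, 0.45 ± 0.16). The Ddx5 row differed by 0.27 relative to its gene (edgeR adjusted p = 0.999). Of 32 SCN peptide, receptor and signalling genes, 7 hosted 19 rows and 5 had a p under 0.05, the 3 Scg2 rows among those named with 0.42, 0.41 and 0.43 (log2). Relative to their hosts, none of the 19 did.

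Of 50 synaptic and channel genes, 19 hosted 42 rows, 7 of them under 0.05, and also 7 relative to their hosts. Mapt, the tau gene (1595 reads), differed by 0.39 ± 0.14, and App, the amyloid precursor gene (860.8 reads), by 0.48 ± 0.16 (log2, SE). Relative to its gene the Mapt row differed by 0.37 (edgeR adjusted p = 0.923), with 1755 and 1765 reads at CT22 and 1276 and 1465 at CT10.

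Reads on the opposite strand were few beside the sense reads in most rows. The median was 0.371% of the sense reads, and 655 rows had no antisense read. In 8 rows the antisense reads were more numerous. A row of Snhg11 (chr2:158211009-158211810) had 156.5 sense and 28599 antisense reads per library, and one of Nnat (labelled Nnat/Peg5), an imprinted proteolipid gene, 63.6 and 5366. The other 6 lay in Dctn2, Mbd6, Gpr162, Tmem85, Clcn2 and C230091D08Rik, with 104.8 to 478.2 antisense reads.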

How the data were processed

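The aligner was STAR 2.3.0e and the build mm9, per the submitters' processing notes; how reads were counted, exons marked and depth equalised is not given in the sources used here. The authors deposited whole-number read counts per exon, gene, intron and junction on each strand, and a JTK adjusted p-value and q-value per row, per the file headers. Replicate numbers are own and pair nothing. Marked rows, gene lists and named exons were chosen with earlier results of these data known. Named exons were the 10 most read, the lowest p on each test (5 where none passed), up to 3 per list or position class, the 3 hosts with most rows, rows at the threshold and the 3 densest; 2 of these are not reported here. Counts were tested with edgeR 4.0.16 in R 4.3.3: rows with at least 10 reads in at least 2 libraries, TMM factors, a day-night and a dusk-dawn term tested together (2 and 5 degrees of freedom), Benjamini-Hochberg at 0.05. The host-relative test used the log of host reads as offset, without modelling their noise, in rows whose host had at least 20 reads in every library. The common biological coefficient of variation was 0.256, and 0.209 relative to the host. The tests were also run on simulated reads with known changes, set to vary less between libraries than these coefficients. Changed rows were drawn only from rows with a mean of at least 50 reads, so the rates do not give the power in the real libraries. Among 184367 simulated rows, the 24-h test called 36 of 100 rows changed 2-fold and 100 of 100 changed 4-fold. Relative to the host, in 174824 rows, it called 43 of 99 and 100 of 100. DESeq2 1.42.0 was an alternative. Peak-to-trough differences and SE (delta method) come from both terms. No genome of the files' build was used here.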

Additional observations from a re-analysis of the deposited data

How the results depend on the processing

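The count of marked exons called on the 24-h test was 0 as reported, and 24 with DESeq2, 60 without a filter on low counts (0.666% of all rows called), 1 with column totals in place of TMM factors and 6 once the oligodendrocyte score was a model term (0.0407% of all rows). It was also 0 with a term for the second cycle, at thresholds of 20 and 100 reads, and among the 29 rows that overlap no other. Leaving out 1 library at a time gave 0 to 18, the 18 without CT16 replicate 1, 4 without CT22 replicate 2, and 1 each without CT22 replicate 1 and CT4 replicate 1. Relative to the host, the count of 1 was also 1 at both thresholds. It was 0 without the exon's own reads in the host total, 0 with factors computed on the ratio, 0 among the 12 non-overlapping rows and 0 to 3 without 1 library, with 3 without CT16 replicate 1 and 2 without CT22 replicate 1. The cause was not tested, except that fewer rows were counted among the non-overlapping ones. The share of all rows called was not tallied for the fit with column totals, nor for the fits without 1 library on either test. Without 1 library the difference of the Pcsk1n row ran from 2.34, with the phase reversed, to 9.02 (log2). No replicate block was fitted, since the labels give no replicate numbers; the term for the second cycle is the nearest to one. Depth limits the junction shares: most new borders had 4 or fewer junction reads in 8 libraries.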
